A study of Mus musculus with 24 samples.

Results

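The genes of the inflammasome and of the interleukin 1 system were followed across 24 bulk RNA sequencing libraries of mouse mammary tumours. The set was given by name as 10 genes, Nlrp3, Pycard, Casp1, Casp4, Gsdmd, Il1a, Il1b, Il18, Il1rn and Il1r1, and all 10 were found among the 46318 gene identifiers of the count tables, 33552 of them with at least 1 read over the series. The tumours came from MMTV-PyMT mice, in which the mouse mammary tumour virus promoter drives the polyoma middle T oncogene in mammary epithelium. Labels place 12 libraries in a knockout group (KO) and 12 in a wild-type group (WT). The gene concerned is Nr0b2, whose product SHP is an orphan nuclear receptor, and both groups carry the PyMT transgene. The design describes the knockout mice as NR0B2-/- and the others as NR0B2+/+, and no age or other agent is given. Tumours of both groups were taken at 2000 mm3, and no label says whether each came from a separate animal, so every p-value measures the spread between these tumours.

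The inflammasome is a cytosolic machine of innate immune cells and some epithelia. A sensor such as NLRP3 recruits the adaptor ASC, encoded by Pycard, which in turn activates caspase-1. Caspase-1 matures the interleukin 1 beta and interleukin 18 precursors and cleaves gasdermin D, whose fragments form pores in the plasma membrane, while caspase-11, encoded by Casp4 in the mouse, cleaves gasdermin D after sensing bacterial lipopolysaccharide. Interleukin 1 alpha and beta both signal through the receptor encoded by Il1r1, and the receptor antagonist encoded by Il1rn occupies that receptor without signalling. Maturation and release are steps at the protein level, which RNA counts do not measure.

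The starts of both agonist genes and of both caspase genes are shown first, because each pair lies side by side in the genome and the levels below compare the members of a pair. On GRCm39, the build of the count tables, 54597 bases separate Il1a from Il1b on chromosome 2, and 1534 bases separate Casp1 from Casp4 on chromosome 9. The sequences are the 250 bases before each RefSeq start on GRCm38.p6, written from 5′ to 3′ on the strand of the gene, and capitals mark matches to 3 motifs searched on both strands: TATAAA, the AP-1 motif TGANTCA and the kappa B consensus. They are chr2:129309973-129310222 on the minus strand for Il1a, chr2:129371140-129371389 on the minus strand for Il1b, chr9:5298267-5298516 on the plus strand for Casp1, and chr9:5308599-5308848 on the plus strand for the first of 2 Casp4 starts.
Il1a: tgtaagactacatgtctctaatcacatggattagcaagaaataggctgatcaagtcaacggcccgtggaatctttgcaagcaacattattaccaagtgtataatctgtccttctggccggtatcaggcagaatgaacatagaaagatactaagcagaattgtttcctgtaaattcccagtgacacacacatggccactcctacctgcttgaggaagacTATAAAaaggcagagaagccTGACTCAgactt
Il1b: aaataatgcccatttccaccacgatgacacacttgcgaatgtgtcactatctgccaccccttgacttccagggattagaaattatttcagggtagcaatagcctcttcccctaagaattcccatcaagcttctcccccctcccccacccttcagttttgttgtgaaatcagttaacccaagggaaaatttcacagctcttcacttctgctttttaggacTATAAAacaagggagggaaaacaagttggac
Casp1: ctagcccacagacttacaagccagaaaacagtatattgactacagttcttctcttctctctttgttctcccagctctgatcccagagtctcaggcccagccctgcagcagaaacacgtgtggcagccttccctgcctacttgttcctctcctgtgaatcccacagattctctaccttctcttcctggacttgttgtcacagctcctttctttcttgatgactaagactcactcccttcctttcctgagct
Casp4: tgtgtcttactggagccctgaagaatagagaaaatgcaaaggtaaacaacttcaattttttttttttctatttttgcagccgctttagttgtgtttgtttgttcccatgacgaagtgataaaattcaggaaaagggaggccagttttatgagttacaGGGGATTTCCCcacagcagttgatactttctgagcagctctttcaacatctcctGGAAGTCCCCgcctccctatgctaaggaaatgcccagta

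Il1a and Il1b each held TATAAA close to the start, at -32 to -27 and at -31 to -26, counted back from -1 at the base before the start. Il1a alone of these 4 windows held the AP-1 motif, as TGACTCA at -12 to -6. Casp4 held kappa B matches at -93 to -84 and at -92 to -83, which overlap, and another at -39 to -30, whereas the Casp1 window held no match to any of the 3 motifs. Windows were found for 9 of the 10 genes, 14 windows in all, of which 3 held TATAAA, 2 the AP-1 motif and 4 a kappa B match, the last count including both overlapping windows of Casp4. Among 32851 windows of the same length over all genes, 12.4% held TATAAA, 6.75% the AP-1 motif and 7.25% a kappa B match. A match describes letters in a window and shows no binding.

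Between 18789250 and 38022182 reads were counted per library, and every one of the 10 genes had reads in every library, from 21 to 2969 each. The targeted gene went against the labels, with 182 Nr0b2 reads in KO-labelled libraries, from 3 to 71 each, and 1 read in WT-labelled ones, so the groups are called by their labels throughout. Counts per gene cannot tell reads of a deleted part of Nr0b2 from those of the rest. The epithelial marker Epcam averaged 1062 CPM (counts scaled to TMM library size) in KO-labelled libraries and 1017 CPM in WT-labelled ones. All 8 macrophage markers were detected in every library, with summed levels of 452 to 1097 CPM in KO-labelled libraries and 371 to 851 CPM in WT-labelled ones. Of 8 neutrophil markers only S100a8, S100a9, Csf3r and Mmp8 passed the filter on low counts, and the defining marker Ly6g had 0 reads in KO-labelled libraries and 2 in WT-labelled ones. Library KO 11 had the highest summed macrophage, dendritic cell, T cell, fibroblast, adipocyte and skeletal muscle markers of all 24.

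Set against each other per unit of transcript length, in TPM (counts divided by gene length and then scaled to the library), the genes spanned a wide range of levels. Casp1 stood highest, at a mean of 138 TPM over the 24 libraries, followed by Pycard at 81.4 TPM and Casp4 at 26.1 TPM. Casp1 exceeded Pycard in 23 of 24 libraries, and Pycard exceeded Casp4 and Casp4 exceeded Il1b in all 24. The next 4 genes lay close together, with means of 9.07 TPM for Il1b, 7.87 TPM for Gsdmd, 6.99 TPM for Il1rn and 5.16 TPM for Il1r1. Each of these exceeded the next in only 15 or 16 of 24 libraries, so their order did not hold across tumours, and Il1r1 exceeded Il18 in 16. Il18 averaged 3.65 TPM, Il1a 2.19 TPM and the sensor Nlrp3 1.24 TPM, the lowest of the 10. Il18 exceeded Il1a in 21 libraries, and Il1a exceeded Nlrp3 in 23. In a homogenised tumour, fewer cells of a type and less RNA per cell cannot be told apart, and this holds for every level given here.

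The design sets KO tumours against WT tumours to find differentially expressed genes. None of the 10 genes was called between the groups, and the ranges of the libraries labelled KO and labelled WT overlapped for all 10. In edgeR's quasi-likelihood test with Benjamini-Hochberg adjustment over 15820 tested genes, 50 genes passed an adjusted p of 0.05, or 0.316%, 28 of them upward and 22 downward with the KO label. The adjusted p-values of the 10 genes ran from 0.607 to 0.962, and 0 of them had an unadjusted p under 0.05, a level that 18.9% of all tested genes reached. DESeq2 called 0 of the 10 as well. Their log2 changes, labelled KO over labelled WT, were positive for 8 genes and negative for 2, with a median of 0.15 against 0.0075 for all tested genes. Without KO 11 and KO 12 the median of the 10 was 0.059. A missed threshold does not show equal levels. Approximate 95% intervals, the log2 change plus or minus a normal quantile times its standard error, all included 0, and their outermost bounds were 0.615-fold and 1.99-fold.

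**Figure D1:**
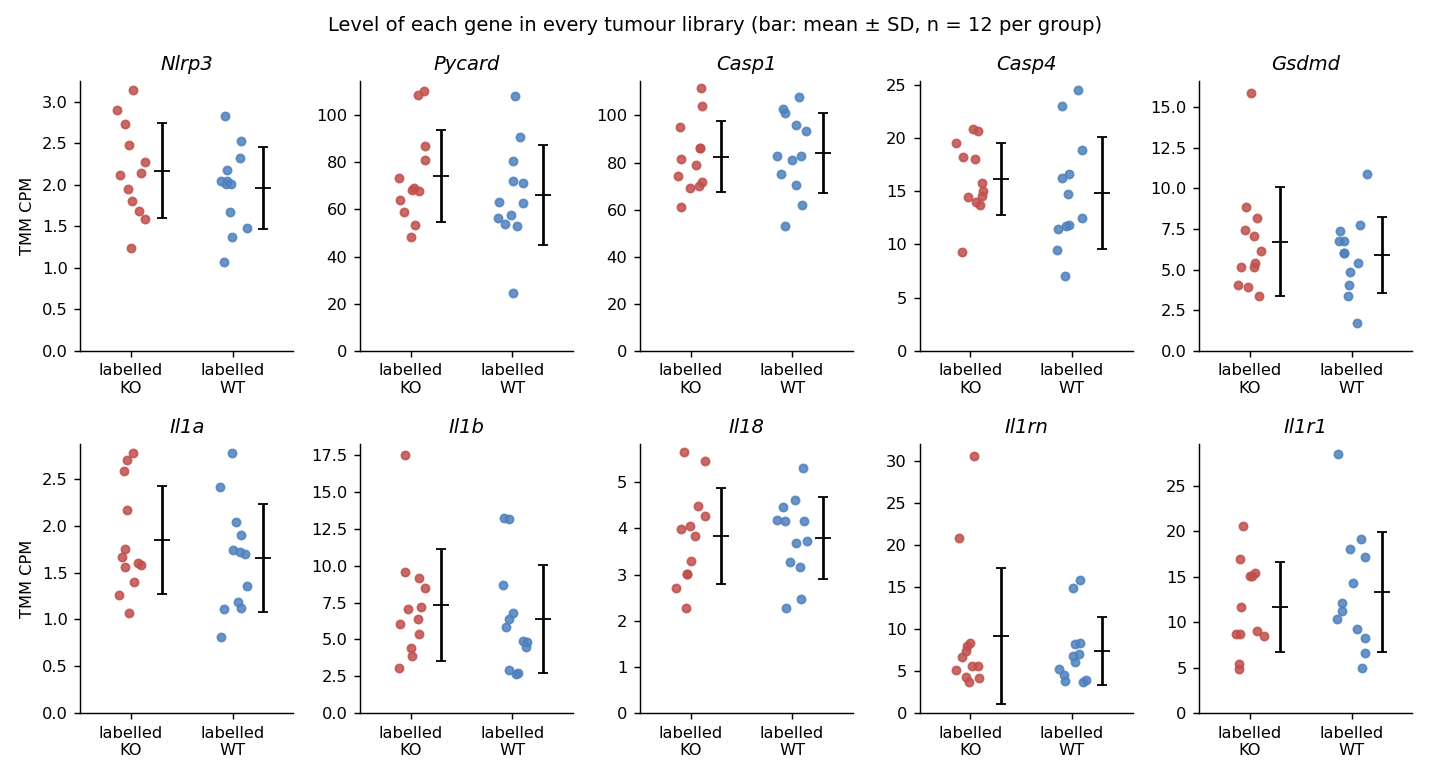
Level of each of the 10 genes in TMM-scaled CPM (vertical axis, linear, from 0) in each library, the 12 labelled KO to the left of the 12 labelled WT, with the mean and SD of each group as a bar. The points of both groups cover overlapping ranges for every gene, and single libraries stand high for Il1rn (30.6 CPM in KO 12), Gsdmd (15.9 CPM in KO 11), Il1b (17.5 CPM in KO 9) and Il1r1 (28.4 CPM in WT 13).

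Nlrp3 (chr11:59432395-59457781, plus strand, GRCm39), the sensor, was scarce in both groups. Its lowest, median and highest levels were 1.23, 2.13 and 3.14 CPM in KO-labelled libraries, against 1.07, 2.03 and 2.83 CPM in WT-labelled ones. The ranges nearly coincided, and 7 of the 12 libraries labelled KO lay above the WT median. The log2 change was 0.15 ± 0.17 (SE, n = 12 per group, edgeR adjusted p = 0.649). Nlrp3 lies on chromosome 11, where the median deviation of all genes on the chromosome ran from -0.14 to 0.04 (log2) across KO-labelled libraries and from -0.10 to 0.30 across WT-labelled ones, and no member was called with such medians taken out as offsets.

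Pycard (chr7:127590545-127593039, minus strand), the adaptor, was abundant. It ranged from 48.4 CPM through a median of 68.6 CPM to 110.2 CPM in KO-labelled libraries, against 24.5, 63.0 and 108.3 CPM in WT-labelled ones. The lowest value of all, in WT 23, stood well under the rest, and 9 of 12 libraries labelled KO lay above the WT median. The means were 74.2 ± 19.6 CPM in KO-labelled libraries and 66.2 ± 21.1 CPM in WT-labelled ones (SD, n = 12 each), a log2 change of 0.16 ± 0.17 (SE, edgeR adjusted p = 0.607), the smallest adjusted p of the 10.

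Casp1 (chr9:5298517-5307281, plus strand), the protease at the centre of the complex, varied least. It had a lowest, median and highest level of 61.3, 80.2 and 112 CPM in KO-labelled libraries, against 53.0, 82.8 and 108 CPM in WT-labelled ones. Its standard deviation within groups was 0.28 on the log2 scale, the 39.5th percentile of all tested genes. The log2 change was -0.03 ± 0.11 (SE, edgeR adjusted p = 0.915), with an interval from -0.25 to 0.19. Without KO 11 and KO 12 it was 0.012, so no direction can be given for Casp1.

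Casp4 (chr9:5308816-5336791, plus strand), which encodes the lipopolysaccharide-sensing caspase-11, was more spread in the libraries labelled WT. It ran from 9.27 through 15.4 to 20.9 CPM in KO-labelled libraries, against 7.0, 13.6 and 24.5 CPM in WT-labelled ones. The range labelled WT enclosed the range labelled KO, while 11 of 12 libraries labelled KO lay above the WT median. The exception was KO 12, the library with the lowest Casp4 of its group. The log2 change was 0.13 ± 0.17 (SE, edgeR adjusted p = 0.702).

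Casp4 relative to Casp1 was also compared within each tumour, since one caspase acts after lipopolysaccharide and the other in the canonical complex. The ratio of their CPM had a lowest, median and highest value of 0.134, 0.175 and 0.289 in KO-labelled libraries, against 0.0930, 0.182 and 0.239 in WT-labelled ones. Neither group held a library in which Casp4 reached the level of Casp1. The mean log2 ratio, with 0.25 CPM added to each gene, was 0.19 higher in KO-labelled libraries (two-sided permutation test with 100000 resamples, p = 0.259, adjusted p = 0.518 over 2 ratios, n = 12 per group), a difference within the spread between libraries.

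Gsdmd (chr15:75733990-75739257, plus strand), which encodes the pore-forming gasdermin D, varied widely between tumours. Its lowest, median and highest levels were 3.38, 5.78 and 15.9 CPM in KO-labelled libraries, against 1.69, 6.03 and 10.9 CPM in WT-labelled ones. The extremes were KO 11 at the top, WT 13 as the highest of its group and WT 23 at the bottom, 9.42-fold apart from top to bottom. The log2 change was 0.18 ± 0.25 (SE, edgeR adjusted p = 0.709). It was -0.10 with either the macrophage or the fibroblast marker score in the fit, which compares the groups at a given score. In fits leaving out single libraries it ran from -0.0097 (without KO 11) to 0.30, and 1 of 24 turned its sign. The sign for Gsdmd thus depended on KO 11 and on the fit.

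Il1a (chr2:129141530-129151892, minus strand), which encodes the agonist that acts as an alarm signal on release from damaged cells, was scarce in every tumour. It ran from 1.07 through 1.63 to 2.77 CPM in KO-labelled libraries, against 0.814, 1.71 and 2.77 CPM in WT-labelled ones. Both groups reached the same highest level, and the log2 change was 0.15 ± 0.20 (SE, edgeR adjusted p = 0.692). Of the exon bases of Il1a 11.2% lie under Gm14023 on the other strand. The recorded count command names no strand option, so reads of these overlapping genes cannot be told apart, and the same holds for 1.06% of the exon bases of Il1b under Il1bos and 3.59% of those of Il18 under Tex12.

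Il1b (chr2:129206490-129213059, minus strand), the agonist made by activated myeloid cells, varied more than most genes. It had a lowest, median and highest level of 3.07, 6.71 and 17.5 CPM in KO-labelled libraries, against 2.70, 5.38 and 13.2 CPM in WT-labelled ones. One library labelled KO, KO 9, and a pair labelled WT, WT 15 and WT 17, stood above the others of their groups. The standard deviation within groups was 0.72 on the log2 scale, above 83.7% of all tested genes. The means were 7.33 ± 3.79 CPM in KO-labelled libraries and 6.39 ± 3.64 CPM in WT-labelled ones (SD, n = 12 each), with a log2 change of 0.20 ± 0.29 (SE, edgeR adjusted p = 0.726).

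Il18 (chr9:50466000-50493141, plus strand), the other cytokine that caspase-1 matures, had the log2 change nearest to 0 of the 10. It ran from 2.27 through 3.91 to 5.66 CPM in KO-labelled libraries, against 2.28, 3.95 and 5.30 CPM in WT-labelled ones. The log2 change was 0.02 ± 0.16 (SE, edgeR adjusted p = 0.962), with an interval from -0.30 to 0.33, and its sign turned with the fit.

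Il1rn (chr2:24226872-24241503, plus strand), the natural antagonist, was the most variable of the 10. Its lowest, median and highest levels were 3.79, 6.18 and 30.6 CPM in KO-labelled libraries, against 3.71, 6.43 and 15.8 CPM in WT-labelled ones. The medians were near each other, and the higher KO mean rested on KO 12 at 30.6 CPM and KO 7 at 20.9 CPM, the log2 change being -0.026 without KO 12. KO 12 also had the lowest TMM factor of all, 0.829, and in TPM its lead was small, at 16.8 TPM in KO 12 and 16.2 TPM in KO 7 beside 15.2 TPM in WT 17. In the group labelled WT, WT 17 at 15.8 CPM and WT 21 at 14.9 CPM stood apart from the rest. The standard deviation within groups was 0.81 on the log2 scale, above 87.5% of all tested genes. The means were 9.23 ± 8.14 CPM in KO-labelled libraries and 7.39 ± 4.07 CPM in WT-labelled ones (SD, n = 12 each), a log2 change of 0.32 ± 0.35 (SE, edgeR adjusted p = 0.628). With the neutrophil marker score in the fit the log2 change was -0.44.

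Il1r1 (chr1:40261651-40355361, plus strand), the signalling receptor of both agonists, had the lowest log2 change. It ran from 4.83 through 10.4 to 20.5 CPM in KO-labelled libraries, against 4.96, 11.7 and 28.4 CPM in WT-labelled ones. WT 13 was highest of all and KO 11 highest of its group, while KO 12 was lowest. The means were 11.7 ± 4.90 CPM in KO-labelled libraries and 13.3 ± 6.54 CPM in WT-labelled ones (SD, n = 12 each), a log2 change of -0.19 ± 0.26 (SE, edgeR adjusted p = 0.706). With the fibroblast marker score in the fit it was -0.54 ± 0.23 (SE, edgeR adjusted p = 0.134), which did not pass either. The authors' deposited table, over 14019 genes with 41 at an adjusted p under 0.05, gives Il1r1 a log2 change of -0.19 (adjusted p = 0.709) and Il1rn one of 0.30 (adjusted p = 0.644).

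**Figure D2:**
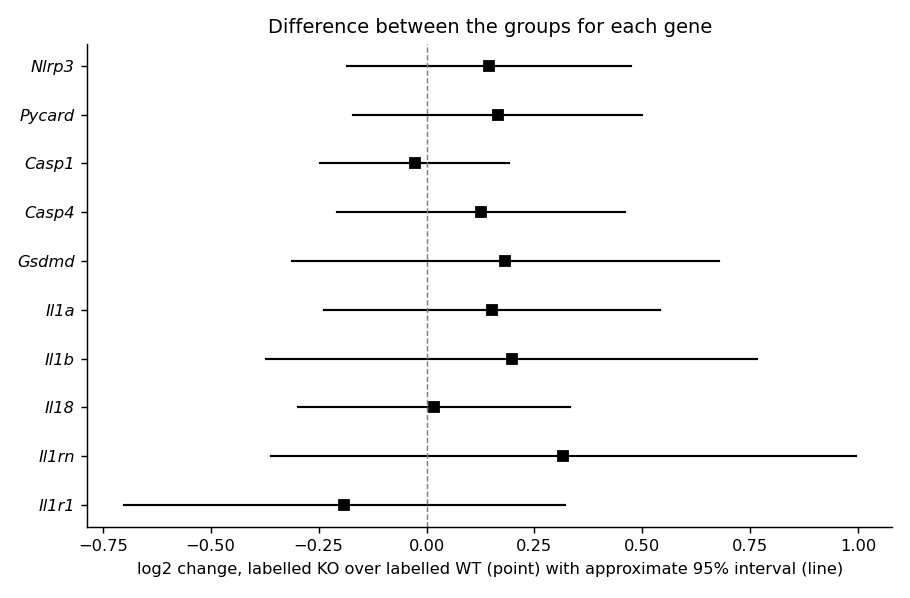
Log2 change of each gene, labelled KO over labelled WT (horizontal axis; squares), with its approximate 95% interval (lines) from edgeR over 12 libraries per group. Every interval crosses the dashed line at 0, the widest being that of Il1rn from -0.36 to 0.99 and the narrowest that of Casp1 from -0.25 to 0.19.

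The balance of antagonist to agonist was taken within each tumour as the ratio of Il1rn to Il1b CPM. The ratio ran from 0.324 through a median of 1.04 to 4.81 in KO-labelled libraries, against 0.427, 1.28 and 2.30 in WT-labelled ones. Because CPM does not allow for gene length, the genes were set against each other in TPM, where Il1rn exceeded Il1b in 3 of 12 libraries labelled KO and in 3 of 12 labelled WT. In CPM these counts were 6 and 8. The highest ratio belonged to KO 12, with its high Il1rn, and the lowest to KO 9, with the highest Il1b of all tumours. The mean log2 ratio differed by -0.085 between the libraries labelled KO and those labelled WT (two-sided permutation test with 100000 resamples, p = 0.813, adjusted p = 0.813 over 2 ratios, n = 12 per group).

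**Figure D3:**
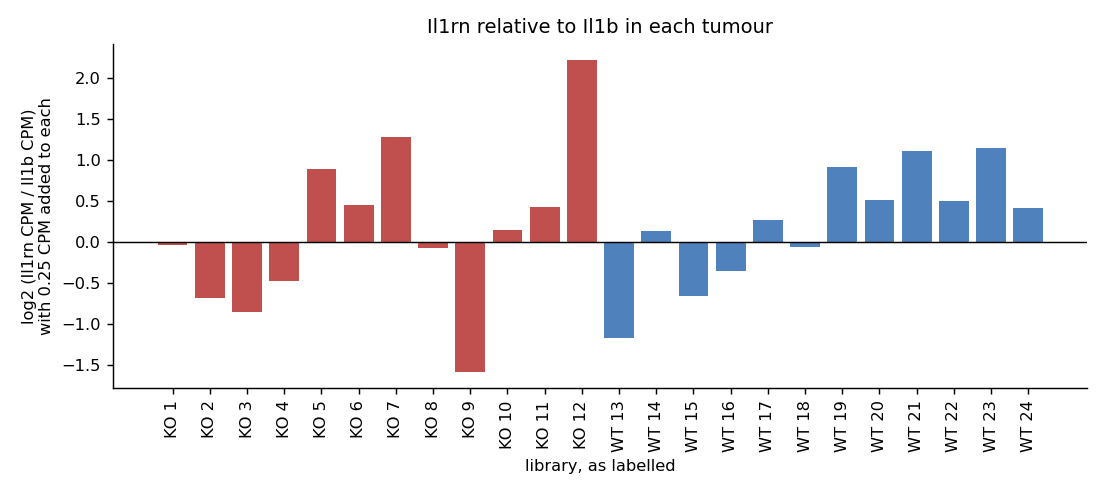
Log2 ratio of Il1rn to Il1b CPM, with 0.25 CPM added to each (vertical axis), as 1 bar per library from 0, the 12 labelled KO first and the 12 labelled WT after them. CPM is not divided by gene length, so a bar at 0 does not mark equal transcript levels, and the bars of KO 12 (ratio 4.81) and KO 9 (ratio 0.324) reach farthest up and down.

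How the genes varied together among tumours was examined with the group means removed, over all 45 pairs of the 10 genes. Gsdmd and Il1r1 rose and fell together, with a Pearson r of 0.777 over 24 libraries (permutation within groups, 100000 resamples, p = 2e-05, adjusted p = 0.0009) and a Spearman rho of 0.826 (permutation p = 1e-05, the smallest these resamples can give). Within groups r was 0.759 in KO-labelled libraries (permutation adjusted p = 0.0792) and 0.793 in WT-labelled ones (permutation adjusted p = 0.0733), so the relation passed over all 24 libraries and in neither group of 12 alone. Without KO 11 and WT 23, the libraries farthest from the median of Gsdmd, r was 0.772, and without KO 11 and KO 12 it was 0.79. No other pair passed after adjustment, and 5 of the 45 had an unadjusted p under 0.05.

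Several pairs known to act together did not pass. The neighbouring agonist genes Il1a and Il1b had r = 0.258 (permutation adjusted p = 0.669, n = 24), and the neighbouring caspase genes Casp1 and Casp4 had r = 0.401 (permutation adjusted p = 0.351). The windows printed above hold TATAAA in both agonist genes and kappa B matches only in Casp4 of the caspase pair, and any relation of these motifs to r was not tested. Nlrp3 and Il1b, whose transcripts are both induced when macrophages are primed, had r = 0.409 (permutation adjusted p = 0.349). Il1b and its antagonist Il1rn had r = 0.319 (permutation adjusted p = 0.476). Casp4 and Il1rn had the lowest r of all pairs, -0.477 (permutation adjusted p = 0.159), which did not pass. Within groups r was -0.81 in KO-labelled libraries (permutation adjusted p = 0.049), the 1 pair that passed within a group, and -0.262 in WT-labelled ones (permutation adjusted p = 0.68), a difference that was not tested. KO 12 had both the lowest Casp4 of its group and the highest Il1rn of all. Without KO 11 and KO 12 the r of this pair over both groups was -0.312 (permutation adjusted p = 0.605, n = 22).

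**Figure D4:**
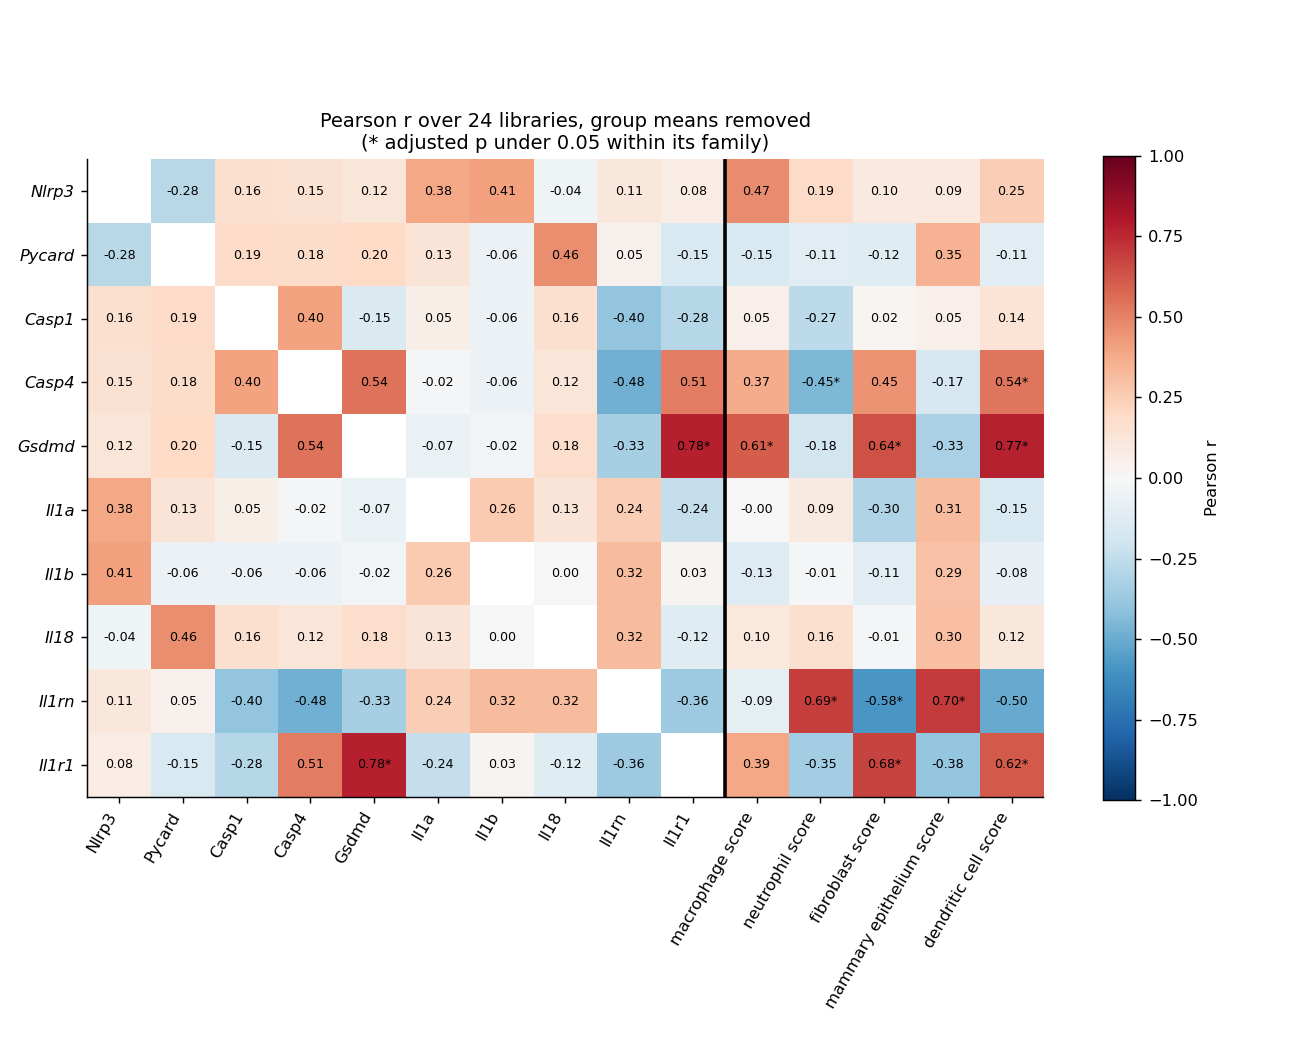
Pearson r between each of the 10 genes (rows) and each of the 10 genes and 5 marker scores (columns, the scores right of the black line) over 24 libraries with group means removed, on a colour scale from -1 to 1. Stars mark an adjusted permutation p under 0.05, which 1 of 45 gene pairs (Gsdmd with Il1r1, 0.777) and 10 of 50 gene and score pairs carry, whereas the row of Il1b carries none.

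The same was done for each gene against the scores of 5 cell type lists, the mean centred log2 CPM of their tested markers. Of 50 such relations 10 passed after adjustment, 8 positive and 2 negative, and 13 had an unadjusted p under 0.05. Gsdmd, Il1r1, Il1rn and Casp4 held all 10. Taken within groups, 10 of 50 passed in KO-labelled libraries and 0 in WT-labelled ones, and differences in r between the groups were not tested. Those passing in KO-labelled libraries were not all the same relations. They included Casp4 with the fibroblast score and both Casp4 and Il1r1 with the mammary epithelium score. They left out Gsdmd with the macrophage, Il1rn with the fibroblast and Il1r1 with the dendritic cell score. Without the libraries farthest from each gene's median, 2 relations still passed, Gsdmd with the dendritic cell score and Il1r1 with the fibroblast score. Without KO 11 and KO 12 only Gsdmd with the dendritic cell score passed, at r = 0.735 (permutation adjusted p = 0.008, n = 22).

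The dendritic cell score was made of Flt3, Zbtb46, Xcr1, Clec9a, Ccr7 and Cd209a. Gsdmd followed it at r = 0.773 (permutation adjusted p = 0.0005, n = 24), with r = 0.846 in KO-labelled libraries (permutation adjusted p = 0.0132) and r = 0.716 in WT-labelled ones (permutation adjusted p = 0.262). Library KO 11 had both the highest Gsdmd and the highest dendritic cell score, and WT 23 the lowest Gsdmd. Of the scored markers, Zbtb46 stood at 9.97 CPM in KO 11. It was 3.74 CPM in WT 13, the library labelled WT with the highest Gsdmd, but 7.11 CPM in WT 23. Flt3 went the other way, at 4.92 CPM in KO 11, 0.953 CPM in WT 13 and 0.395 CPM in WT 23. The score itself was 2.17 in KO 11, 0.178 in WT 13 and -1.14 in WT 23. Single markers were not tested against Gsdmd. Gsdmd also followed the fibroblast score at r = 0.638 (permutation adjusted p = 0.0104) and the macrophage score at r = 0.607 (permutation adjusted p = 0.0124). Il1r1 followed the fibroblast score at r = 0.675 (permutation adjusted p = 0.0057) and the dendritic cell score at r = 0.616 (permutation adjusted p = 0.0124). The fibroblast relation of Il1r1 was r = 0.932 in KO-labelled libraries and r = 0.41 in WT-labelled ones, a difference that was not tested. Whether Gsdmd and Il1r1 were related beyond what these scores share was not tested.

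Il1rn followed the mammary epithelium score at r = 0.70 (permutation adjusted p = 0.0057, n = 24), with r = 0.759 in KO-labelled libraries and r = 0.613 in WT-labelled ones, but not by Spearman's rho (permutation adjusted p = 0.0702). It ran against the fibroblast score at r = -0.58 (permutation adjusted p = 0.0287). Its relation to the neutrophil score had r = 0.695 (permutation adjusted p = 0.0112). Without KO 7 and KO 12 none of the 3 passed, with r = 0.569 for mammary epithelium (permutation adjusted p = 0.0789), r = -0.591 for fibroblasts (permutation adjusted p = 0.0625) and r = 0.271 for neutrophils (permutation adjusted p = 0.404). In KO-labelled libraries the r with the neutrophil score was 0.935 and in WT-labelled ones 0.0332, and this difference was not tested either. Mmp8 was highest in KO 7, at 4.14 CPM, and S100a8 in KO 12, at 363 CPM, against 2.52 to 17.8 CPM of S100a8 in the libraries labelled WT. Csf3r, another of the 4 scored markers, was lowest of all 24 libraries in KO 12, at 2.51 CPM, and highest in KO 7, at 6.87 CPM. The last of the 4, S100a9, was highest in KO 12, at 15.4 CPM, and stood at 3.47 CPM in KO 7. Ly6g had 0 reads in both KO 7 and KO 12, so this score rests on genes other than that defining marker, and the part of neutrophils in the level of Il1rn was not tested.

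**Figure D5:**
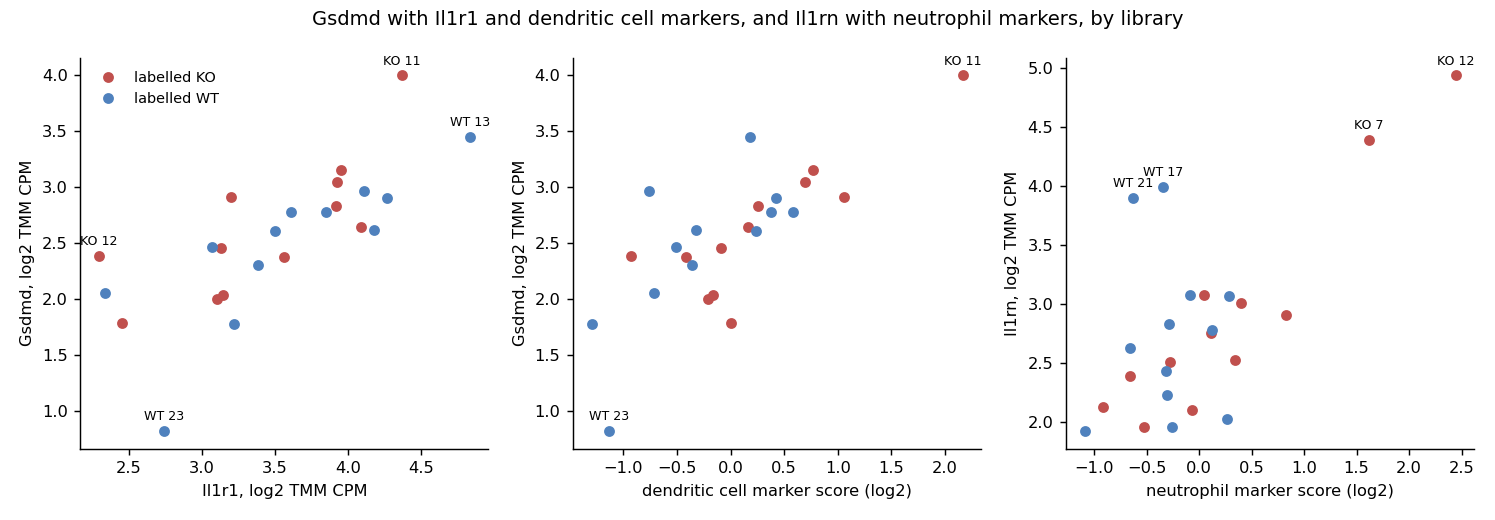
Gsdmd against Il1r1 (left) and against the dendritic cell marker score (middle), and Il1rn against the neutrophil marker score (right), all on log2 scales, as 1 point per library, red for labelled KO and blue for labelled WT. Over 24 libraries with group means removed, r is 0.777 in the left panel and 0.773 in the middle one, whereas on the right KO 7 and KO 12 stand away from the other libraries, and r is 0.271 without them.

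Casp4 followed the dendritic cell score at r = 0.536 (permutation adjusted p = 0.0293, n = 24) and ran against the neutrophil score at r = -0.453 (permutation adjusted p = 0.0356), though neither passed by Spearman's rho (permutation adjusted p = 0.0893 for both). No relation of Il1b to the 5 scores passed. Its r was -0.131 with the macrophage score (permutation adjusted p = 0.792) and -0.011 with the neutrophil score (permutation adjusted p = 0.978), the scores of cell types known as sources of this cytokine. Nlrp3 had r = 0.469 with the macrophage score, which did not pass (permutation adjusted p = 0.0992).

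The genes most like 4 of the members were sought among 14456 tested genes with a mean of at least 1 CPM, by Spearman rho over the 24 libraries with group means removed. For Il1b these were Rab20, a small GTPase gene, at 0.731, Fos, an AP-1 subunit gene, at 0.727, and Megf11 at 0.722. For Nlrp3 they were Gpr141 at 0.797, Naip2, which encodes a sensor of bacterial proteins in the NLRC4 inflammasome, at 0.77, and Mov10 at 0.757. For Casp1 they were Tigd2 at 0.853, Rnf13 at 0.806 and Zfp952 at 0.782. For Il1rn they were Ap1s1, an adaptor protein subunit gene, at 0.865, Ccdc85c at 0.857 and Tk1, the thymidine kinase gene, at 0.839. None of these 12 genes is another member of the set.

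The wider pathway was described from lists of 65 other genes, of which 54 were tested and 0 were called in edgeR, beside 0.316% of all tested genes, and 5 of the 54, all higher in KO-labelled libraries, had an unadjusted p under 0.05, beside 18.9% of all tested genes. The 16 tested sensors and regulators were split evenly, with 8 positive and 8 negative log2 changes. Their smallest p belonged to Card9, an adaptor of fungal recognition, at 4.56 ± 1.90 CPM in KO-labelled libraries and 3.08 ± 0.73 CPM in WT-labelled ones (SD, n = 12 each, edgeR adjusted p = 0.146). Nlrp10 followed at 5.03 ± 5.99 CPM in KO-labelled libraries and 2.03 ± 2.44 CPM in WT-labelled ones (edgeR adjusted p = 0.251). Neither passed, and the spread of Nlrp10 exceeded its mean in both groups.

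The 9 tested cell death effectors had 6 positive and 3 negative log2 changes. Ripk3, the kinase of necroptosis, had a log2 change of 0.28 ± 0.17 (SE, edgeR adjusted p = 0.378), and Ninj1, which ruptures the plasma membrane after gasdermin pores form, had 0.21 ± 0.14 (SE, edgeR adjusted p = 0.405). Neither passed the test.

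Among receptors and decoys, 7 of 8 log2 changes were positive. Il1r2 encodes the decoy receptor that binds interleukin 1 without signalling. It had 2.51 ± 0.818 CPM in KO-labelled libraries and 1.41 ± 0.601 CPM in WT-labelled ones (SD, n = 12 each), with 11 of 12 libraries labelled KO above the WT median. Its log2 change of 0.83 ± 0.23 (SE) did not pass in edgeR (adjusted p = 0.102), whereas the adjusted p was 0.0314 in DESeq2 and 0.0383 in edgeR with the fibroblast score as a covariate. Il18rap, which encodes the accessory chain of the interleukin 18 receptor, had 2.05 ± 1.35 CPM in KO-labelled libraries and 1.04 ± 0.366 CPM in WT-labelled ones (SD, n = 12 each, log2 change 0.98 ± 0.29 SE, edgeR adjusted p = 0.112). Its adjusted p was 0.0441 in DESeq2 and 0.38 in limma voom with quality weights. The calls of both genes thus depended on the tool, and that of Il1r2 also on the covariate. Of all 15820 tested genes, DESeq2 called 418 and edgeR with the fibroblast score 690, against 50 in the main fit. T cell markers, which mark cells known to carry the interleukin 18 receptor, summed to 6.52 to 85 CPM in KO-labelled libraries and 5.48 to 16.4 CPM in WT-labelled ones, and their part in the level of Il18rap was not tested.

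The 10 tested signalling genes between receptor and NF-kappa B had 6 positive and 4 negative log2 changes, with the smallest p in Myd88, the adaptor of the receptor, at 72.4 ± 8.41 CPM in KO-labelled libraries and 69.1 ± 7.59 CPM in WT-labelled ones (SD, n = 12 each, edgeR adjusted p = 0.594). Tab2 had a log2 change of 0.06 ± 0.08 (SE, edgeR adjusted p = 0.714). Of 10 tested genes known to be induced by interleukin 1, 5 were positive and 5 negative. Saa3, an acute-phase protein gene, had 12.5 ± 9.48 CPM in KO-labelled libraries and 6.87 ± 2.57 CPM in WT-labelled ones (SD, n = 12 each, edgeR adjusted p = 0.159). Csf3, the granulocyte growth factor gene, had a log2 change of -0.86 ± 0.52 (SE, edgeR adjusted p = 0.356). Neither passed, and their log2 changes had opposite signs.

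The other ligands of the family were mostly scarce. Il33, an epithelial and stromal alarmin gene, was the 1 ligand of 6 that passed the filter, at 45.7 ± 21.3 CPM in KO-labelled libraries and 72.9 ± 89.7 CPM in WT-labelled ones (SD, n = 12 each, log2 change -0.68 ± 0.40 SE, edgeR adjusted p = 0.348). The WT mean rested on WT 17, at 346 CPM. Il1f6, Il1f8 and Il1f9, which encode the interleukin 36 agonists of barrier epithelia, and Il1f10 had 60, 29, 76 and 25 reads over KO-labelled libraries, against 2, 2, 11 and 4 over WT-labelled ones. All 4 were highest in KO 12, the library with the highest Il1rn and S100a8, and none passed the filter on low counts. In an edgeR fit without that filter, 0 of 64 pathway genes were called, beside 45 of all 33552 genes.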

How the data were processed

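Whole-number counts per gene were made by the authors with featureCounts 2.0.0 on a GRCm39 annotation, per the file headers. STAR and Subread are named in the submitters' processing notes, with no version given in the sources used here. The kit was stranded, per the labels' protocols, while the count command recorded in the headers sets no strand option. The authors' deposited table holds log2 fold changes and mean log2 CPM, an F score, a signed fold, p-values and adjusted p-values for KO against WT.

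After filterByExpr and TMM scaling, the counts were tested over all 24 libraries with edgeR 4.0.16 in R 4.3.3 (quasi-likelihood, two-sided, Benjamini-Hochberg threshold 0.05). DESeq2 1.42.0 and limma 3.58.1 gave alternatives. TPM were computed from the counts and the gene lengths of the count tables. Relations used log2 CPM with a prior count of 2 and 100000 permutations within groups, each family adjusted by Benjamini-Hochberg. The fits were tested on simulated counts. The upstream windows are from RefSeq, on GRCm38.p6.

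The 10 genes, the lists and the tests were chosen with earlier results of these data known. The text names the 10 genes, of each pathway list any called gene or else the 2 with the smallest p, the 3 genes most like each of Il1b, Nlrp3, Casp1 and Il1rn, defining markers where a result stands beside their list, and Nr0b2. Il36rn and the keratinocyte marker given as Loricrin were not matched, and the keratinocyte list, with 2 tested markers, was not scored. The interleukin 36 genes were matched through older symbols. No batch is labelled, and the KO libraries are numbered 1 to 12 and the WT libraries 13 to 24, so order of processing and group cannot be told apart.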

Additional observations from a re-analysis of the deposited data

How the results depend on the processing

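None of the 10 genes was called under any alternative, and the lowest adjusted p was 0.134, for Il1r1 with the fibroblast score as a covariate. The median log2 change of the 10 genes was 0.056 in limma voom, 0.036 with the macrophage covariate and 0.059 without KO 11 and KO 12, against 0.15 in the main fit. Of 340 values of their log2 changes under alternatives, 319 kept their sign and 21 turned. Casp1 was 0.027 with the neutrophil covariate and 0.012 without KO 11 and KO 12. Il18 was -0.10 in limma voom, -0.00031 and -0.030 with the macrophage and neutrophil covariates, and -0.12 without KO 11 and KO 12. Gsdmd was -0.10 with either the macrophage or the fibroblast covariate, and Il1rn was -0.0014 in limma voom and -0.44 with the neutrophil covariate. Leaving out single libraries gave -0.078 to 0.010 for Casp1, -0.0018 to 0.34 for Il1b (lowest without KO 9), -0.049 to 0.071 for Il18, -0.0097 to 0.30 for Gsdmd (lowest without KO 11), -0.026 to 0.47 for Il1rn (lowest without KO 12), and -0.27 to 0.071 for the log2 ratio of Il1rn to Il1b.

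Calls among pathway genes were 2 in DESeq2 and 1 with the fibroblast covariate. Calls among all genes were 50, and 418 in DESeq2, 8, 9 and 690 with the macrophage, neutrophil and fibroblast covariates, 31 without KO 11 and KO 12, and 9 (without WT 18) to 72 (without WT 14) when single libraries were left out. The 10 relations to marker scores became 2 without the 2 libraries farthest from the median, and 1 both without KO 11 and KO 12 and without KO 7, KO 11 and KO 12, settings chosen for the relations after seeing the data. The cause of these changes was not tested. No paired analysis was run because no label pairs a KO tumour with a WT tumour, and the replicate numbers do not show whether any were paired. At 21 to 2969 reads per gene and library, the intervals still allowed changes down to 0.615-fold for Il1r1 and up to 1.99-fold for Il1rn.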
